A study of Homo sapiens with 30 samples.

Results

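The 4 HOX gene clusters held 82 of the 70565 regions called across 8 lists of chromatin immunoprecipitation sequencing (ChIP-seq) peaks. They were chosen by position, as all regions that overlapped 4 fixed windows of the human genome build hg19, not by their values, although the windows were drawn up with earlier results of these data known. The windows were 27100000 to 27280000 on chromosome 7 for HOXA, 46580000 to 46830000 on chromosome 17 for HOXB, 54310000 to 54470000 on chromosome 12 for HOXC and 176930000 to 177080000 on chromosome 2 for HOXD. In these 740 kb the lists of cells without the auxin indole-3-acetic acid (IAA) held 45 regions of CTCF, 24 of TET1, 11 of MBD3 and 1 of TET2. The lists of cells with IAA held 1 region, of TET2.

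HOX genes encode homeodomain transcription factors that give cells their identity along the head-to-tail axis, and the order of the genes in a cluster follows the order of the body parts they pattern. HOXB1, for example, acts in the hindbrain, and HOXA13 and HOXD13 act in the ends of the limbs. CTCF is a zinc-finger protein that anchors chromatin loops, and its sites inside HOX clusters are known as borders between active and silent genes. MBD3 belongs to NuRD, the complex that moves nucleosomes and removes histone acetyl groups, and TET1 and TET2 are enzymes that oxidise methylated cytosine.

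The cells were HEK293T, an established line of human embryonic kidney origin, with CTCF edited for degradation on addition of IAA. All of them had been transfected with 2 plasmids, for the adaptor ScFv-miniIAA7-mEGFP and the receptor AtAFB2-mCherry. They then spent 72 h in fresh medium that either lacked IAA or contained it at 0.5 mM. The sample labels call the first group DMSO and the protocol speaks only of medium without IAA, so it is called "without IAA" here. Each antibody (CTCF, MBD3, TET1, TET2) and the input had 3 samples in each condition, 30 samples in 10 groups. The 3 samples of an antibody and condition had been merged by the authors into 1 peak list. No value here therefore has a replicate error, no difference between conditions could be tested over cultures, and the number of reads behind a list is unknown. For the targeted protein, the CTCF list fell from 42925 regions without IAA to 63 with IAA, the direction that the labels imply. The MBD3 list also fell, from 6608 to 50, and the TET1 list from 16246 to 325, while the TET2 list rose from 1326 to 3022. With the read numbers unknown, the fall in CTCF regions is therefore not a check of the labels by itself.

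The HOX genes considered number 38: 10 of HOXA, 10 of HOXB, 9 of HOXC and 9 of HOXD. Going up the chromosome, HOXA runs from HOXA2 to HOXA13 and HOXB from HOXB1 to HOXB13. HOXC starts with HOXC13 and ends with the group of HOXC4, HOXC5 and HOXC6, and HOXD runs from HOXD13 to HOXD1. This order was read from RefSeq's GRCh38.p14 table, whose coordinates differ from those of the peak lists, so no single region was assigned to a gene. CTCF regions are numbered within a cluster from the lowest coordinate up, and HOXA site 1 is the first CTCF region of the HOXA window.

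The bases under the CTCF regions themselves were not used here, since no hg19 sequence was at hand. RefSeq's GRCh38.p14 promoters, from 250 bases before to 50 after a gene's start, were matched by name for 20 of the 38 genes. They were searched on both strands for a core of the CTCF motif, CC followed after any 3 bases by AGNNGGC. Of the 26 distinct HOX promoters 4 held it, or 15.4%, against 10.6% of 34796 promoters of the same length. With AGNGGGC in place of AGNNGGC, 0 of 26 held it, against 3.91%. Apart from HOXB1, HOXC4 and HOXC5, all genes with a promoter were of HOXA or HOXD, and HOXA3 alone had 7 entries. These shares therefore describe mainly HOXA and HOXD. The 4 matches follow, 60 bases each, read in the direction of the gene, with the matched bases in capitals. They are given to show what the core looks like in a HOX promoter, and whether a CTCF region lies on any of them was not determined.
HOXA10, from 80 to 21 bases before the start: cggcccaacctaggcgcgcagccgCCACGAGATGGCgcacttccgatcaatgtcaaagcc
HOXA11, from 211 to 152 bases before the start: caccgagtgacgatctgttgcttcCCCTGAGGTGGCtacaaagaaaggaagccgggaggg
HOXD10, from 122 to 63 bases before the start: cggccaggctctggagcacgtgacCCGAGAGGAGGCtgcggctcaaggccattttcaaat
HOXD1, from 250 to 191 bases before the start: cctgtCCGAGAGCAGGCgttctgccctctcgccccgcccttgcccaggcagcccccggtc

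CTCF regions were dense in all 4 windows and covered a wide range of strength. HOXA held 11 of them, HOXB 15, HOXC 9 and HOXD 10, or 6.11, 6.0, 5.62 and 6.67 per 100 kb. Chromosomes 7, 17, 12 and 2 as wholes had 1.34, 2.44, 1.59 and 1.29 per 100 kb up to the highest listed position, and chromosomes 1 to 22 and X together had 1.39. The median distance from a HOX CTCF summit to the nearest other CTCF summit was 4.36 kb (quartiles 2.23 and 7.45), against 15.1 kb (5.33 and 36.8) over the whole list. The authors' fold enrichment, used here only to describe and rank regions within 1 list, ran from 2.88 to 46.8 with a median of 16.5 (quartiles 5.15 and 30.6). Over the whole list the median was 13.6 (7.43 and 24.2). A fold of at least 15 was reached by 24 of the 45 HOX regions, or 53.3% (Wilson 95% interval 39.1% to 67.1%), against 46.0% of the list. At the weak end, 10 of the 45 HOX regions had a fold under 5, against 4245 of the 42925 regions of the list. The bound of 15 was picked after the folds and the TET1 calls were seen, and the folds of the 45 regions run on across it. All intervals given for shares are Wilson 95% intervals for the error of counting regions, and no difference between the windows and the list was tested.

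**Figure D1:**
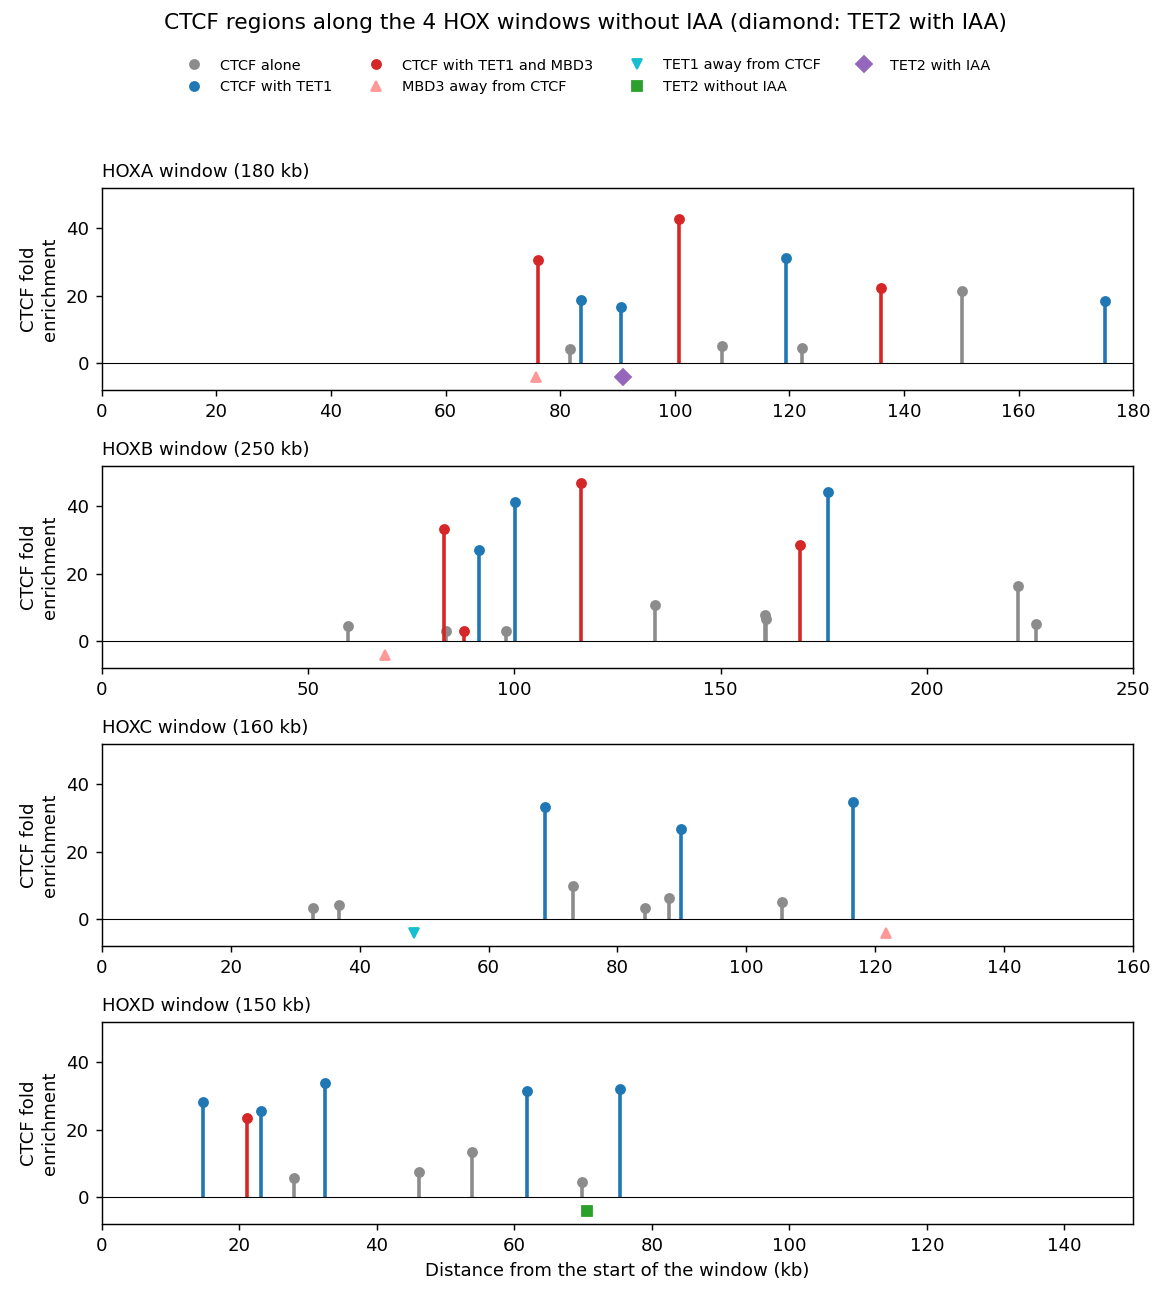
Position and strength of every CTCF region in the 4 windows, without IAA. The x axis is the distance from the start of the window in kb, the y axis is the authors' CTCF fold enrichment, and stems are grey for CTCF alone, blue with TET1 and red with TET1 and MBD3. Symbols under the line mark regions of MBD3, TET1 or TET2 away from CTCF and have no height. They are of cells without IAA, except the diamond in HOXA, which is a TET2 region of cells with IAA. The 45 stems sit in part of each window, and the long stems, from 16.4- to 46.8-fold, are nearly all blue or red.

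Each window also had long stretches with no CTCF region. In HOXA the first 76.2 kb were empty up to site 1, and the nearest CTCF summit outside on that side was 276.0 kb from site 1. On the other side the next summit lay 199.7 kb past site 11. HOXD was the mirror image, since its 10 sites stood in 60.6 kb near the start of the window and the last 74.6 kb held none. The CTCF summits next to the HOXD group were 234.2 kb away at its low end and 314.5 kb away at its high end. Around HOXC these distances were 128.2 and 102.4 kb, and around HOXB 61.1 and 62.2 kb. Within the groups of sites, the widest step was 25 kb in HOXA (sites 10 to 11), 46.1 kb in HOXB (sites 13 to 14), 31.9 kb in HOXC (sites 2 to 3) and 13.6 kb in HOXD (sites 5 to 6). The closest pair was HOXB sites 10 and 11, 397 bp apart. With 50 kb added on each side, HOXB held 19 CTCF regions in place of 15 and the other windows kept their counts. Over the 4 longer windows TET1 was at 26 of 49 CTCF regions, or 53.1%, against 34.4% of the whole CTCF list. MBD3 was at 11 of the 49, or 22.4%, against 8.67%. The outside region nearest to an edge lay 1.3 kb below the HOXB window, at 46578444 to 46578768 on chromosome 17, with a fold of 12.3 and none of the other proteins. On the high side, the first region past HOXB was 38.6 kb outside, at 46868206 to 46868735, with a fold of 30.7, and it carried TET1 and MBD3.

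TET1 was the protein most often called at the CTCF regions of the clusters, MBD3 was rarer and TET2 was at none. TET1 shared at least 1 base with 23 of the 45 CTCF regions, or 51.1% (37.0% to 65.0%), against 34.4% of the whole list. MBD3 was at 8 of 45, or 17.8% (9.29% to 31.3%), against 8.67%. All 8 of these also carried TET1, a class that took 7.86% of the list. Over the list 90.7% of CTCF regions with MBD3 carried TET1. Of the 23 HOX regions with TET1, MBD3 was called at 34.8% (18.8% to 55.1%), against 22.9%. TET2 was at 0 of 45, which allows a share of up to 6.67% when the limit is set at 3 counts of the total (Wilson bound 7.87%). Its share of the list was 1.1%, inside both. None of the 3 proteins was called at 22 of the 45, or 48.9% (35.0% to 63.0%), against 64.4%. When 50% of both regions had to overlap, 35.6% of the HOX regions had TET1 and 8.89% had MBD3, and the list had 25.4% and 3.83%. With −log10 q of at least 10 in every list, MBD3 was at 1 of 30 HOX regions, or 3.33%, against 2.46% of the list.

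Seen from the other lists, nearly all TET1 of the clusters was at CTCF. Of the 24 TET1 regions in the windows 23 touched a CTCF region, or 95.8% (79.8% to 99.3%), against 91.1% of the TET1 list. Of the 11 MBD3 regions 8 did, or 72.7% (43.4% to 90.3%), against 56.4%. The same 8 of 11 carried TET1, against 57.1% of the MBD3 list. The single TET2 region without IAA was not at CTCF, against 35.8% of the TET2 list that was.

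**Figure D2:**
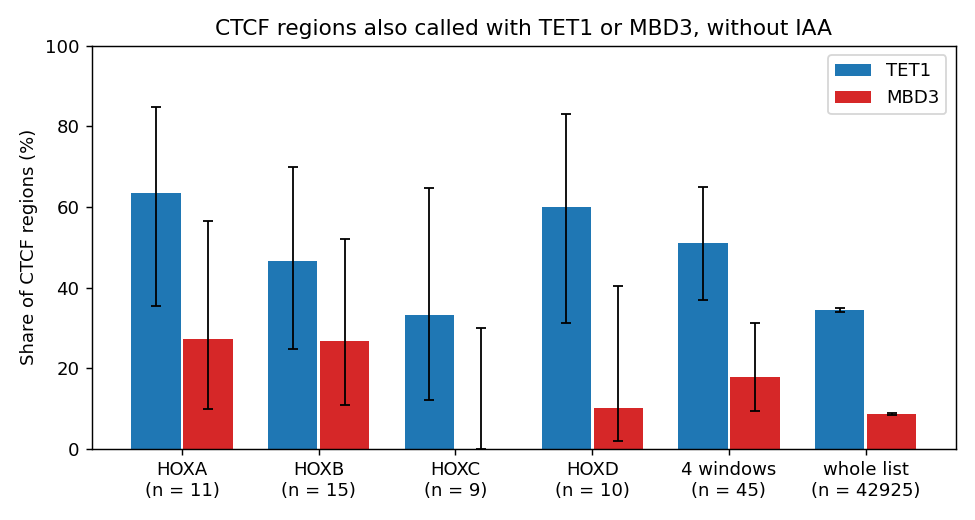
Share of CTCF regions also called with TET1 (blue) or MBD3 (red) in cells without IAA, in percent, for each cluster, the 4 windows together and the whole CTCF list. Bars are shares and error bars are Wilson 95% intervals. HOXA and HOXD stand at 63.6% and 60% for TET1 and HOXC at 33.3%, with intervals that overlap one another, and HOXC has no MBD3.

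The clusters differed in how many of their CTCF regions were shared, but on few regions each. TET1 was at 7 of 11 CTCF regions in HOXA, or 63.6% (35.4% to 84.8%), and at 6 of 10 in HOXD, or 60% (31.3% to 83.2%). In HOXB it was at 7 of 15, or 46.7% (24.8% to 69.9%), and in HOXC at 3 of 9, or 33.3% (12.1% to 64.6%). MBD3 was at 3 CTCF regions in HOXA, 4 in HOXB, 1 in HOXD and none in HOXC, where 0 of 9 allows a share of up to 33.3% at 3 counts of the total (Wilson bound 29.9%). All of these intervals overlap, so no order of the clusters can be read from them.

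HOX CTCF regions with TET1 were mostly of a fold of at least 15, and those without it mostly under 15. At a fold of at least 15, TET1 was called at 22 of 24 HOX regions, or 91.7% (74.2% to 97.7%), and under 15 at 1 of 21, or 4.76% (0.846% to 22.7%). Over the whole list these shares were 66.2% and 7.22%. Since the bound of 15 was picked after the HOX folds and TET1 calls were seen, the HOX intervals do not allow for that choice. Whether the clusters differ from the list at this bound was not tested. HOX regions with TET1 had a median CTCF fold of 30.6 (quartiles 24.4 and 33.6), and those without it 5.18 (4.21 and 7.60). Over the list these medians were 28.0 and 9.35. In finer steps, TET1 was at 12 of 12 HOX regions of 30-fold and over (interval from 75.8%), against 93.9% of the list. From 15- to 30-fold it was at 10 of 12, or 83.3% (55.2% to 95.3%), against 51.5%. From 5- to 15-fold it was at 0 of 11 (27.3% at 3 counts of the total, Wilson bound 25.9%), against 7.07%, and under 5-fold at 1 of 10, against 7.89%. The HOX and list regions of a step were not matched further in fold.

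For MBD3 the shares by CTCF fold rested on 8 regions. At 30-fold and over it was called at 4 of 12 HOX regions, or 33.3% (13.8% to 60.9%), against 36.4% of the list. From 15- to 30-fold it was at 3 of 12, or 25% (8.89% to 53.2%), against 6.43%. Between 5- and 15-fold it was at 0 of 11, against 1.06%, and under 5-fold at 1 of 10, against 4.78%. The median CTCF fold was 29.5 at the 8 HOX regions with MBD3 and TET1 and 31.3 at the 15 with TET1 alone. Over the list the median was 36 with MBD3, whether or not TET1 was called, and 26.0 with TET1 but not MBD3.

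**Figure D3:**
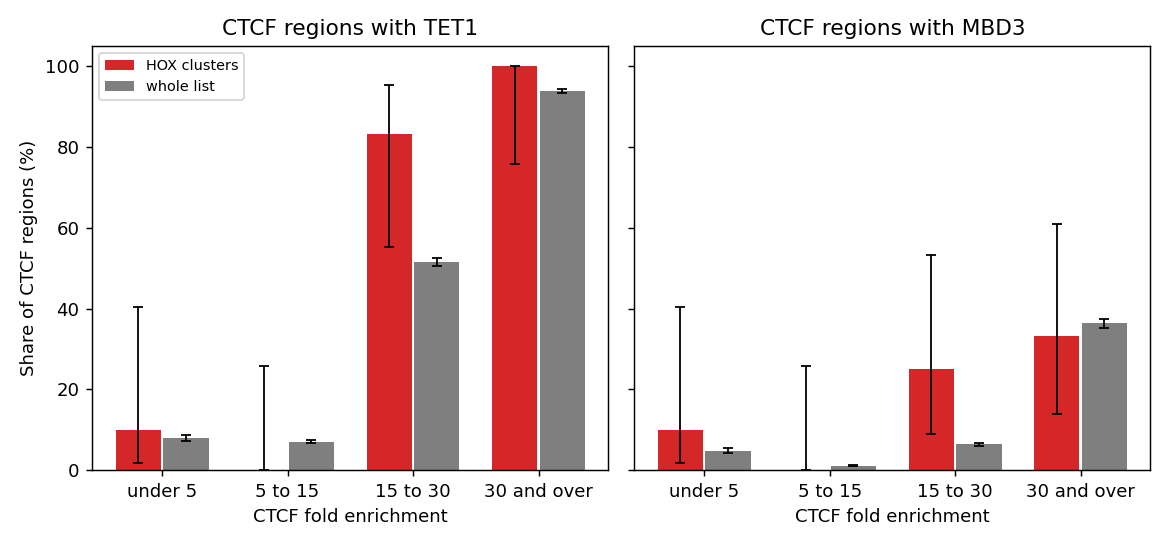
Share of CTCF regions with TET1 (left) and MBD3 (right), in percent, by CTCF fold enrichment without IAA. Red bars are the 45 HOX regions, grey bars the whole list, and error bars are Wilson 95% intervals. TET1 is at 1 of the 21 HOX regions under 15-fold and at 22 of the 24 above, and the red and grey bars differ most from 15- to 30-fold, at 83.3% and 51.5%. The steps were set after the values were seen, which the error bars do not allow for.

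In HOXA the strongest CTCF region was site 5, at 27200560 to 27200998, with a fold of 42.7, rank 2058 of 42925. It carried TET1 at 11.5-fold, rank 2213 of 16246, and MBD3 at 6.68-fold, rank 1688 of 6608. Site 7, at 27219321 to 27219715, was next in the CTCF list at 31.3-fold and carried TET1 at 6.55-fold and no MBD3. Site 1, at 27176031 to 27176323, stood at 30.6-fold for CTCF, 10.7-fold for TET1 and 5.96-fold for MBD3. The strongest 3 thus all had TET1, and sites 5 and 1 also had MBD3. Site 9, at 27235844 to 27236181, was the other region with all 3 proteins, at 22.3-fold for CTCF, 9.53-fold for TET1 and 5.74-fold for MBD3. Sites 3, 4 and 11 had TET1 alone beside CTCF, at CTCF folds of 18.7, 16.5 and 18.3. Sites 2, 6 and 8, at CTCF folds of 4.15 to 5.01, carried nothing else. Site 10, at 27249941 to 27250393, was singled out after its values were seen: at 21.4-fold it has the highest CTCF fold of the HOX regions without TET1. Its −log10 q of 63.2 was below the 88.5 of HOXB site 14, which also lacked TET1.

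HOXB held the strongest CTCF region of the 4 clusters, site 8, at 46695969 to 46696288, with a fold of 46.8 and rank 1364 in the list. TET1 there stood at 13.6-fold, rank 1127, and MBD3 at 7.63-fold, rank 866, each the highest of its protein in the windows. Site 13, at 46755754 to 46756119, was close behind for CTCF at 44.1-fold, with TET1 at 12.3-fold. Site 7, at 46679920 to 46680350, had a CTCF fold of 41.2 and a TET1 fold of 11.1, and neither site 7 nor site 13 had MBD3. Both MBD3 and TET1 were called at site 2, at 46662645 to 46663084 (CTCF 33.2-fold), and at site 12, at 46749018 to 46749562 (CTCF 28.5-fold). TET1 stood there at 9.14- and 8.70-fold, and MBD3 at 5.14-fold at both. Site 5 had TET1 at 8.27-fold beside CTCF at 26.9-fold.

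HOXB site 4 was the 1 HOX region under 15-fold that carried TET1. It lay at 46667628 to 46667912, and at 3.13-fold and −log10 q of 1.64 it was among the weakest 1% of CTCF regions, rank 42501. It still carried TET1 at 4.70-fold, with −log10 q of 4.76, and MBD3 at 3.90-fold, with −log10 q of 1.96. All 3 calls were weak in their own lists, at ranks 13730 of 16246 for TET1 and 5905 of 6608 for MBD3. With −log10 q of at least 5 in every list none of the 3 remains. The other 8 HOXB sites carried none of the proteins, and 7 of them had a fold under 15. The exception, site 14 at 46801867 to 46802183, had a CTCF fold of 16.4 and was also singled out after its values were seen.

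HOXC had 3 strong CTCF regions, each with TET1, and 6 weak ones with nothing else. Site 9, at 54426363 to 54426696, had the highest CTCF fold at 34.6 and a TET1 fold of 6.79. Site 3, at 54378669 to 54378935, had a CTCF fold of 33.3 and a TET1 fold of 12.3, rank 1675 in the TET1 list. Site 7, at 54399737 to 54400105, stood at 26.8-fold for CTCF and 8.05-fold for TET1. The order of sites 9 and 3 by CTCF fold, which were close, was thus turned around in the TET1 list. By CTCF −log10 q, at 146 for site 9 and 226 for site 3, it was not. The 6 weak sites, numbers 1, 2, 4, 5, 6 and 8, had CTCF folds of 3.26 to 9.84.

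In HOXD the strongest CTCF regions were close to each other in fold. Site 5, at 176962187 to 176962661, stood at 33.9-fold, site 10, at 177005214 to 177005757, at 32.1-fold and site 8, at 176991727 to 176992031, at 31.5-fold. Their TET1 folds were 9.12, 7.59 and 11.2, in the same order. Of the HOXD sites 1 had MBD3: site 2, at 176950939 to 176951302, where MBD3 stood at 5.39-fold, with CTCF at 23.5-fold and TET1 at 7.01-fold. TET1 was also at sites 1 and 3, at 3.93- and 5.59-fold, where CTCF stood at 28.3 and 25.4. The other 4 sites, at CTCF folds of 4.45 to 13.4, had none of the proteins.

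TET1 and MBD3 summits lay on the CTCF summit at each shared HOX region. The TET1 summit was at a median of 10 bp from it (quartiles 7 and 14) and at most 36 bp away, at HOXD site 1, so 23 of 23 were within 50 bp. Over the list the median was 7 bp and 96.4% were within 50 bp. The MBD3 summit was at a median of 11.5 bp and at most 29 bp, at HOXA site 5, against a median of 12 bp and 89.8% within 50 bp over the list. CTCF and TET1 fold rose together over the 23 HOX regions, with a Spearman rho of 0.72, against 0.78 over the 14746 regions of the list. For MBD3 rho was 0.69 over 8 HOX regions and 0.56 over 3722. These points share their samples and the cells' chromatin, and the correlations are descriptions across sites.

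**Figure D4:**
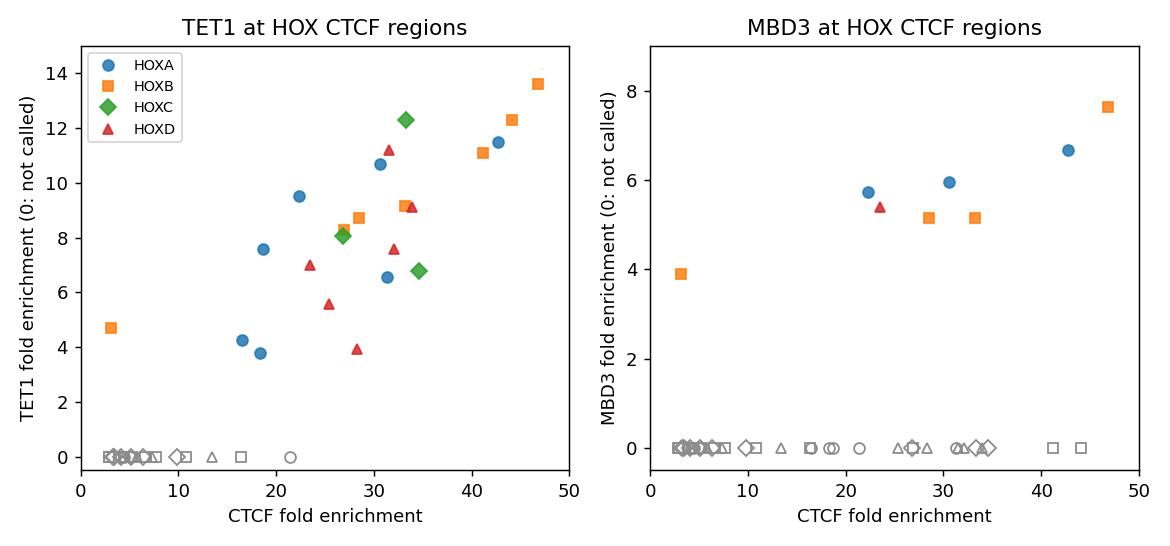
TET1 fold (left) and MBD3 fold (right) against CTCF fold at the 45 HOX CTCF regions without IAA, each a fold enrichment from the authors' list of that protein. Colours and shapes give the cluster, and open grey symbols at 0 are regions where the protein was not called. TET1 points range from 3.79- to 13.6-fold and are mostly higher at stronger CTCF regions, and the orange square at a CTCF fold of 3.13 is HOXB site 4.

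Few regions of the other proteins lay away from CTCF. The 1 TET1 region away from it was in HOXC, at 54358273 to 54358492, 11351 bp from the nearest CTCF region, with a fold of 4.98 and rank 13101. Of the 3 such MBD3 regions, that of HOXA, at 27175628 to 27175834, lay 196 bp from CTCF site 1 with a fold of 6.76. That fold is higher than the 5.96 of the MBD3 region on site 1 itself. The MBD3 region of HOXB, at 46648534 to 46648689, was 8581 bp from CTCF with a fold of 4.12, and that of HOXC, at 54431577 to 54431725, was 4880 bp away with a fold of 4.15. The TET2 region of cells without IAA was in HOXD, at 177000525 to 177000673, 603 bp from CTCF site 9, with a fold of 4.63 and −log10 q of 2.3, rank 654 of 1326.

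With IAA none of these 81 regions was called again. The whole lists with IAA held 63 regions of CTCF, 325 of TET1, 50 of MBD3 and 3022 of TET2. For TET2, with 1 region in the windows without IAA, no share kept was computed over the list. For CTCF 0 of 45 were kept, which allows a share of up to 6.67% at 3 counts of the total (Wilson bound 7.87%), and the share over the list was 0.126%. For TET1 0 of 24 were kept (12.5% at 3 counts, Wilson bound 13.8%), against 0.222%. For MBD3 0 of 11 were kept (27.3% at 3 counts, Wilson bound 25.9%), against 0.182%. At such shares a count of 0 among so few regions does not set the clusters apart from the whole lists. The 1 region with IAA was a TET2 region in HOXA, at 27190937 to 27191073, with a fold of 5.67 and −log10 q of 3.85, rank 828 of 3022. It lay 173 bp past the end of CTCF site 4, a region of 16.5-fold CTCF and 4.24-fold TET1 without IAA, and no TET2 region had been called in HOXA without IAA. One region in the 4 windows is 0.135 per 100 kb for TET2 in either condition, against 0.0427 without and 0.0955 with IAA over chromosomes 1 to 22 and X.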

How the data were processed

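ChIP-seq regions of CTCF, MBD3, TET1 and TET2 in HEK293T cells without or with IAA were analysed. Per the submitters' processing notes, the build was hg19 and the tools were MACS2 2.1.2, bedtools 2.25.0, Bowtie2 2.3.4, FastQC 0.11.7 and SAMtools 1.9, with no roles stated. Which control served each list was not stated. Each deposited list pools 3 samples and gives per row a fold enrichment (a ratio), −log10 of q, and a score, which is 10 times −log10 q as a whole number. The score deposited by the authors was not used. The highest q was 0.05.

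Rows of 1 list sharing 1 bp were joined, keeping their top fold, their top −log10 q and the summit that went with it (in the windows, 47 CTCF rows gave 45 regions). Sharing between lists meant at least 1 bp in common, and kept meant sharing with the list of the same antibody with IAA. Coordinates are hg19, counted from 1. Densities used the highest listed position as chromosome length. Named regions were, in each cluster, the 3 of highest CTCF fold, those with both MBD3 and TET1, those of TET2, those of MBD3 or TET1 away from CTCF, and those with IAA. The members, windows and lists were chosen with earlier results of these data known, and the fold steps of 5, 15 and 30 after the values were seen. No significance test was run. Python 3.11.15, numpy 2.4.6, pandas 2.3.3, scipy 1.17.1 and matplotlib 3.10.9 were used, and joining and sharing were tested on simulated data. Alternatives were single rows, a 50% overlap, a minimum −log10 q of 5 or 10, a minimum fold of 5, summits at most 200 bp apart, summits inside the windows, windows longer by 50 kb on each side and, added after seeing the data, gaps of up to 1000 bp.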

Additional observations from a re-analysis of the deposited data

How the results depend on the processing

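Of 114 values recomputed for 15 results under 9 alternatives, 102 stayed within their interval or within 1.5 times the count. Part of this tally was fixed in advance, since results of 0 could only stay at 0 under stricter rules. These were the share and number for TET2 at CTCF and the number of CTCF regions kept with IAA. With 50% overlap of both regions, TET1 was at 35.6% of HOX CTCF regions (25.4% of the list) and MBD3 at 8.89% (3.83% of the list). None of the proteins was at 64.4% of the HOX regions, and 4 MBD3 regions were at CTCF. The list's share with none was not computed at 50% overlap, and the 64.4% given for the list above is for sharing of 1 base. TET1 and MBD3 regions are narrower than CTCF regions, at whole-list medians of 197, 188 and 276 bp, so this rule drops regions that lie inside a wide one. At −log10 q of at least 10, 30 of the 45 HOX CTCF regions remained, against 34413 of the 42925 of the list. HOXB then held 9 CTCF regions and HOXC 5, and the median HOX fold was 26.8, with no list median computed at this limit. MBD3 was at 3.33% of HOX CTCF regions (2.46% of the list) and 1 MBD3 region was at CTCF. The region with IAA was gone at −log10 q of at least 5 and of at least 10, leaving 0. With gaps of up to 1000 bp, 1 TET2 region counted as at CTCF. No paired analysis was possible because the 3 samples of a group were pooled in 1 list, and leaving out a replicate could not be run for the same reason. The unknown read depth limits every absence stated here.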
